A study of Mus musculus with 6 samples.

Results

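Genes of glutathione metabolism and of the antioxidant programme of the transcription factor NRF2 were followed after MEK inhibition in MS5, a stromal line from mouse bone marrow. The list held 41 genes, taken by name and role. A gene was read from the probe sets whose annotation named it alone, which gave 39 measured genes of 19938 on the array. MEKi cultures had received 1 μM of the MEK inhibitor PD184352 for 7 days, and control cultures had received the DMSO diluent. Each of 3 independent experiments gave 1 culture of each kind, so 6 arrays (Affymetrix Mouse Gene ST) were available. All cultures were of 1 cell line without leukaemic cells, grown in alpha-MEM with serum. As whole cultures were measured, fewer cells carrying a transcript and less transcript per cell cannot be told apart.

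NRF2, encoded by Nfe2l2, is held in the cytoplasm and sent for degradation by KEAP1. When oxidants or electrophiles modify KEAP1, NRF2 accumulates, pairs with small MAF proteins and binds antioxidant response elements in the promoters of its targets. These targets make glutathione, recycle thioredoxin and detoxify quinones and haem. Glutathione is then used by peroxidases to reduce peroxides and by transferases to conjugate reactive compounds. Vanins are pantetheinases: they split pantetheine into pantothenate, the precursor of coenzyme A, and the aminothiol cysteamine, which affects thiol balance.

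Values are log2 intensities after robust multichip averaging (RMA) and ran over all 28853 probe sets from 2.25 to 14.07, with array medians of 6.29 to 6.38. Of 10 genes known to be induced downstream of ERK, the kinase that MEK phosphorylates, 2 were lower with MEKi at an adjusted p under 0.05 (Ccnd1 and Fosl1) and 0 were higher. Of all probe sets, 0.159% passed in either direction. The log2 fold changes of the 10 ran from −1.32 to −0.097, with a median of −0.41. In all 3 experiments 7 were lower, against 7.98% of all probe sets. Stromal markers lay at or above the median of all probe sets in 7 of 8 cases, against 0 of 5 leukocyte, 0 of 4 endothelial and 1 of 3 hepatocyte markers. Of 4 adipocyte markers, 3 did so, and the sum of their log2 values was 35.2 to 39.8 in MEKi cultures and 33.8 to 39.9 in diluent cultures. None of the 4 passed the test with limma, but 2 had an unadjusted p under 0.05, both with higher values with MEKi: Adipoq, which encodes adiponectin (log2 fold change 0.45, higher in all 3 experiments), and Plin1, which encodes a lipid droplet coat protein (0.51, with differences of 0.77, −0.17 and 0.93). The median of the 4 was 0.41. No stromal marker passed either, but 2 of the 8 had an unadjusted p under 0.05 from limma. Vcam1 was lower in all 3 experiments (log2 fold change −0.57) and Cxcl12 was higher in all 3 (0.22). The part of these adipocyte and stromal markers in the results below was not tested.

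Among the 39 antioxidant genes, 1 was higher with MEKi at an adjusted p under 0.05 and none was lower at that threshold. It was Vnn3, which encodes a vanin, at 1.62 times its diluent level. This call was lost in 7 of 11 alternative limma fits. The analysis of variance named in the study's methods, run here without pairing cultures by experiment, gave Vnn3 an unadjusted p of 0.148. The methods do not state whether experiment entered it. Of all probe sets, 0.159% passed in either direction and 0.104% were higher, with limma and Benjamini-Hochberg adjustment over all of them. Vnn3 was also the single member to meet, with limma's p, the thresholds taken from the study's methods, a change of at least 1.5-fold with an unadjusted p of at most 0.05 (0.537% of all probe sets) or at most 0.0005 (0.239%). None of 6 standard NRF2 targets passed. Hmox1 had a log2 fold change of −0.27, Nqo1, Gclc, Gclm, Txnrd1 and Srxn1 lay between −0.023 and 0.11, and the signs of Nqo1 and Txnrd1 turned negative when arrays were rescaled.

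**Figure D1:**
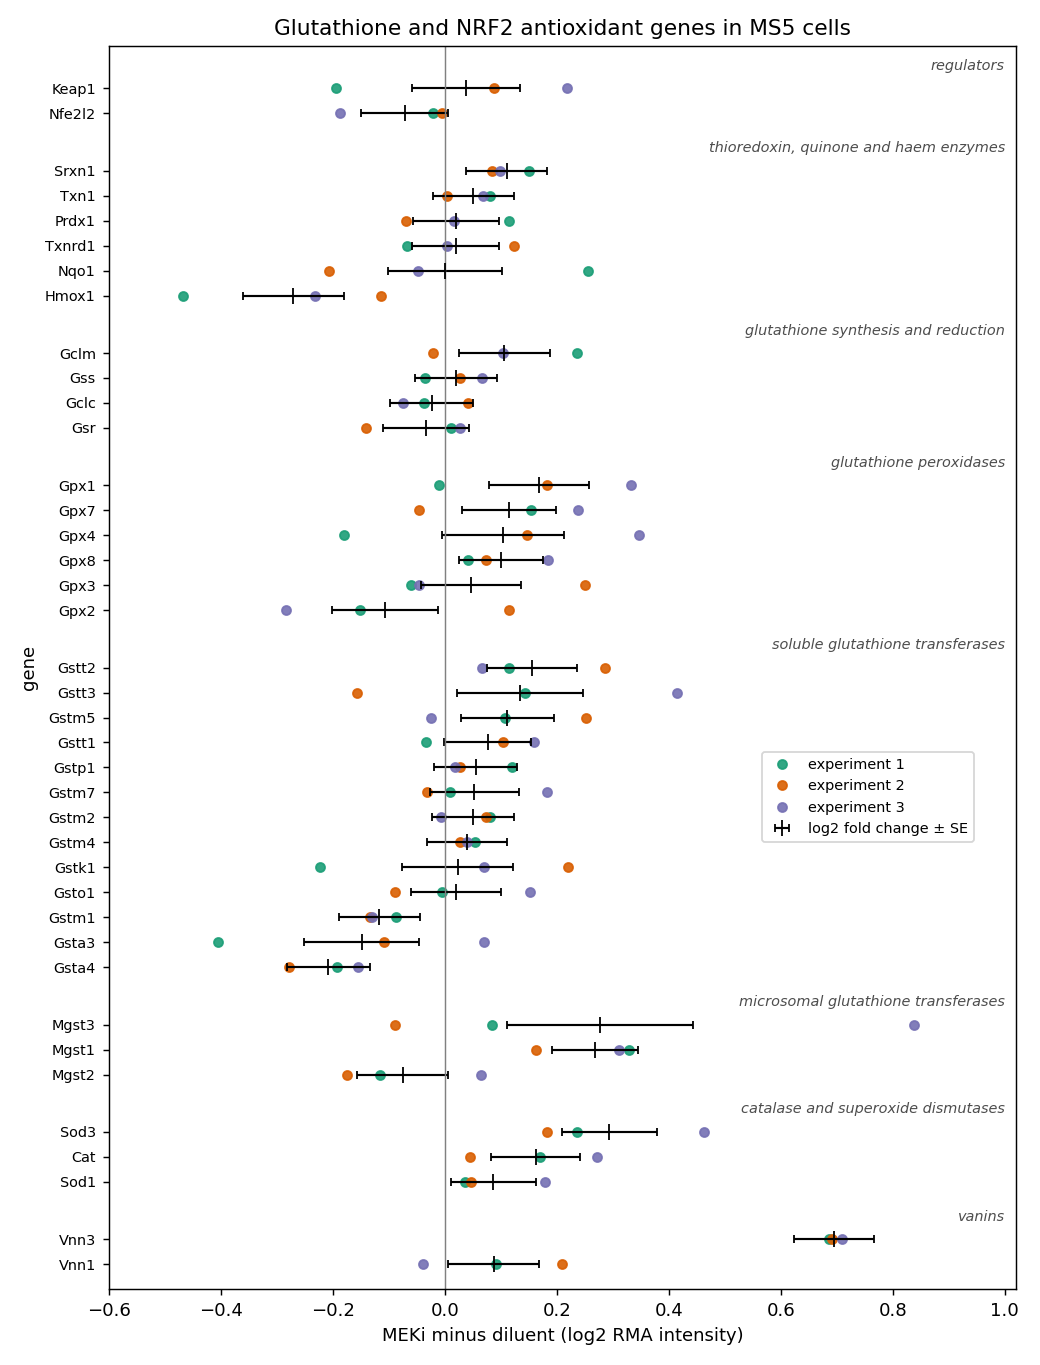
Difference between MEKi and diluent cultures (x axis, log2, MEKi minus diluent) of the 39 measured genes by role (y axis). Colours mark experiments 1 to 3, and black marks show limma's estimate with its standard error. The 3 points of Vnn3 lie together at 0.69 to 0.71, while most other genes have points on both sides of 0 or close to it.

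Both vanin genes were on the array, and in the gene table of GRCm38.p6 they are neighbours on chromosome 10 with 0 genes between them. Vnn3 had values of 5.86, 6.80 and 6.47 in the MEKi cultures of experiments 1, 2 and 3, against 5.17, 6.11 and 5.76 in the diluent cultures. Each MEKi culture lay above the diluent culture of its own experiment by nearly the same amount, with differences of 0.69, 0.69 and 0.71, although the ranges of the groups overlapped because the experiments themselves differed. The log2 fold change was 0.70 (standard error 0.0716, 95% confidence interval 0.53 to 0.86, adjusted p = 0.0338 from limma). Vnn1, the family member best known as the epithelial pantetheinase, had values of 5.25, 5.17 and 4.98 with MEKi and 5.15, 4.96 and 5.02 with diluent. These groups overlapped as well, and the log2 fold change of 0.087 (95% confidence interval −0.10 to 0.28) did not pass (adjusted p = 0.778 from limma). The mean of Vnn1, 5.09, lay below the median of all probe sets, 6.32, so its lack of a call says little about response. Whether the pair differed in response was not tested.

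The size of the Vnn3 change was 0.65 to 0.70 in every fit that included it. Changes of block, prior or probe sets tested leave this value as it is, so only rescaling, array weights and omitted experiments could move it. Its call was not stable. The adjusted p from limma was 0.9995 without the replicate block, 0.523 when the block was random and 0.0581 when arrays were quantile normalized again. It was 0.0604 when they were centred on their median and 0.0621 to 0.134 with 1 experiment left out. The mean of Vnn3, 6.03, lay below the median of all probe sets, 6.32, so Vnn3 was not tested when dim probe sets were removed, and 0 members were then called.

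**Figure D2:**
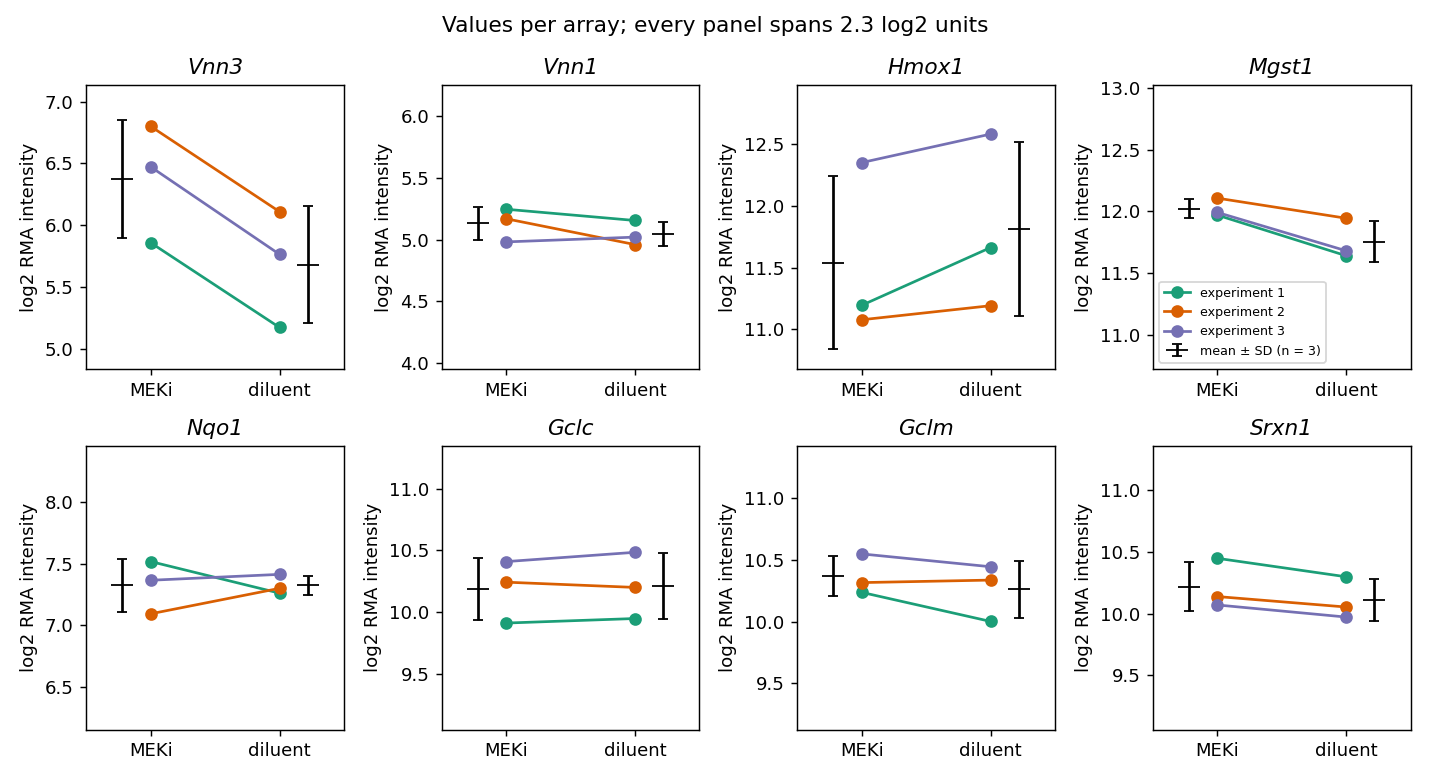
Log2 RMA intensity (y axis) of 8 genes in MEKi and diluent cultures (x axis); each line is 1 experiment, and black bars give the mean ± SD (n = 3). The lines of Vnn3 run in parallel, those of Nqo1 cross, and Hmox1 in experiment 3 lies above the other experiments in both conditions.

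Promoter windows from RefSeq (GRCm38.p6), each from 250 bases before to 50 after a gene's start, were found for 33 of the 41 genes. The antioxidant response element core TGACNNNGC was searched on both strands, and so was the AP-1 motif TGACTCA, which can overlap it. The core was present in 11 of 43 windows of these genes (25.6%) and in 12.4% of all 32851 windows. AP-1 was present in 5 of 43 (11.6%) and in 5.2% of all windows. The bases before the start are shown for Vnn3, the called gene, and for Srxn1 and Prdx1, targets whose windows hold AP-1 letters. Capitals mark the motif matches, on either strand.
Vnn3 (chr10:23851212-23851461, + strand): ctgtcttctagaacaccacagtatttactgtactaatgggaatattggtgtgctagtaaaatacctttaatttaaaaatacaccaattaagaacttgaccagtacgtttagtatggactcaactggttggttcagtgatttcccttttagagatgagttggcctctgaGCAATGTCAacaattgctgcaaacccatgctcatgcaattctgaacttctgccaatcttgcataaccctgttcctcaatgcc
Srxn1 (chr2:152105274-152105523, + strand): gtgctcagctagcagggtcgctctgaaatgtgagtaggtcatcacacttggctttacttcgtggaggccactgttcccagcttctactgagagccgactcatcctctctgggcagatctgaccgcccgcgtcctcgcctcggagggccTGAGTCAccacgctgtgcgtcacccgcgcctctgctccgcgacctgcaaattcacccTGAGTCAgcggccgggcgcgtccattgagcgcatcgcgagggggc
Prdx1 (chr4:116685349-116685598, + strand): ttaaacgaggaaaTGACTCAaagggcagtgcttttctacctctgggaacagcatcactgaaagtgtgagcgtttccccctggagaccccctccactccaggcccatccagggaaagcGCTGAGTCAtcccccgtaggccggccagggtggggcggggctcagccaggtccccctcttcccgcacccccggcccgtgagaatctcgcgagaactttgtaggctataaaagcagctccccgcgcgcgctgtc

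In Vnn3 the core lay on the minus strand, beginning 82 bases before the start. In Prdx1 the core and an AP-1 match overlapped, and in Srxn1 the core itself lay past the start, outside the bases shown. Of the 11 measured genes with the core, 1 was called, against 0.159% of all probe sets. This was Vnn3, whose call was lost in 7 of 11 alternative limma fits. The others (Gsta3, Nfe2l2, Srxn1, Gstm5, Gstm7, Gclm, Prdx1, Mgst1, Txnrd1 and Sod1) had log2 fold changes of −0.15 to 0.27. Whether the core bears on the change was not tested. A match says only that these letters stand in the window.

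Neither of the regulators passed. Nfe2l2 had values of 11.49, 11.52 and 11.45 in MEKi cultures and 11.51, 11.52 and 11.64 in diluent cultures. Its differences of −0.022, −0.0053 and −0.19 were all below 0, as they were after centring but not after a further quantile normalization. The log2 fold change was −0.071 (95% confidence interval −0.25 to 0.11, adjusted p = 0.814 from limma). Keap1 had 8.60, 8.66 and 8.85 with MEKi and 8.80, 8.57 and 8.63 with diluent. Its differences had both signs, and its log2 fold change of 0.038 (limma adjusted p = 0.932) became −0.017 after a further quantile normalization. The arrays measure mRNA, whereas NRF2 is mainly governed at the protein level, so these values do not report its activity.

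Hmox1, the haem oxygenase that frees iron, carbon monoxide and biliverdin from haem, was lower in all 3 experiments without passing. Its values were 11.20, 11.08 and 12.35 in MEKi cultures, against 11.66, 11.19 and 12.58 in diluent cultures. Experiment 3 stood above the others in both conditions, by more than the conditions differed within an experiment. The differences were −0.47, −0.11 and −0.23, the log2 fold change was −0.27 (standard error 0.0902, 95% confidence interval −0.48 to −0.058) and the adjusted p from limma was 0.395. Nqo1, the quinone reductase widely used as a readout of NRF2, had values of 7.52, 7.09 and 7.37 with MEKi and 7.26, 7.30 and 7.41 with diluent. Its differences of 0.26, −0.21 and −0.048 cancelled, and the interval around its log2 fold change of 0.00065 ran from −0.24 to 0.24 (adjusted p = 0.999 from limma).

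The thioredoxin branch reduces peroxiredoxins after they have removed hydrogen peroxide. Srxn1, sulfiredoxin, which repairs over-oxidized peroxiredoxins, had values of 10.45, 10.14 and 10.07 with MEKi and 10.30, 10.05 and 9.97 with diluent. It was slightly higher in each experiment as deposited, though not in each after rescaling, and its log2 fold change was 0.11 (95% confidence interval −0.059 to 0.28, adjusted p = 0.67 from limma). Txnrd1, thioredoxin reductase, had 9.33, 9.56 and 9.38 with MEKi and 9.39, 9.44 and 9.38 with diluent, a log2 fold change of 0.020 (limma adjusted p = 0.957) whose sign turned under both rescalings. Txn1, thioredoxin itself (0.051), and the peroxiredoxin Prdx1 (0.020) did not pass either, Prdx1 turning negative under both rescalings. A second probe set of Prdx1 gave 0.086.

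Glutathione is built by glutamate-cysteine ligase, with a catalytic subunit (Gclc) and a modifier subunit (Gclm), and by glutathione synthetase (Gss), and its oxidized form is reduced by Gsr. None of these 4 passed, and their log2 fold changes ran from −0.034 (Gsr) to 0.11 (Gclm), with Gss at 0.020 and turning negative under both rescalings. Gclc had values of 9.91, 10.24 and 10.41 with MEKi and 9.95, 10.20 and 10.48 with diluent, so that each pair of cultures lay within 0.075 while the experiments ranged over 0.54 in diluent. Its log2 fold change was −0.023 (95% confidence interval −0.20 to 0.15, adjusted p = 0.947 from limma). Gclm had 10.24, 10.32 and 10.55 with MEKi and 10.00, 10.34 and 10.44 with diluent, and its log2 fold change of 0.11 (95% confidence interval −0.085 to 0.30) did not pass either (adjusted p = 0.724 from limma). Of the synthesis and reduction genes, 2 lay above 0 and 2 below.

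**Figure D3:**
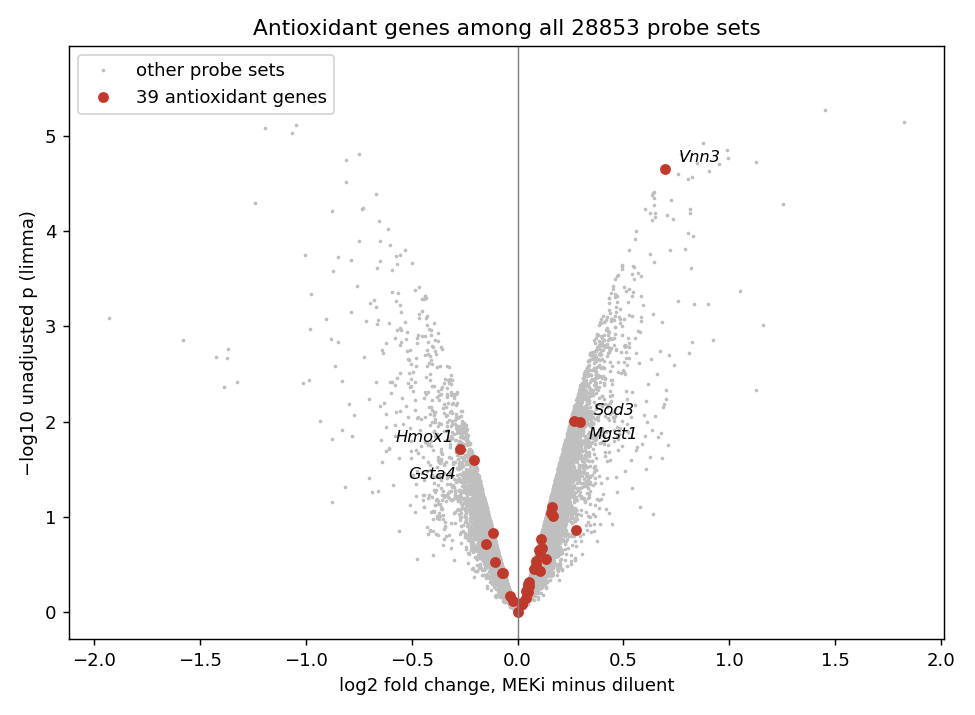
Log2 fold change, MEKi minus diluent (x axis), against −log10 of the unadjusted p from limma (y axis) for all 28853 probe sets (grey) and for the 39 measured genes (red). Vnn3 lies apart from the other members, with Sod3 and Mgst1 on the higher side and Hmox1 and Gsta4 on the lower side next in p.

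Of 6 glutathione peroxidases, none passed, with log2 fold changes of −0.11 (Gpx2, known from the gut epithelium) to 0.17 (Gpx1, the cytosolic enzyme). The mean of Gpx2, 5.75, lay below the median of all probe sets, 6.32. Gpx1 had values of 10.59, 10.61 and 10.55 in MEKi cultures and 10.60, 10.43 and 10.22 in diluent cultures. The MEKi values lay together while the diluent values spread, giving differences of −0.010, 0.18 and 0.33 and a log2 fold change of 0.17 (95% confidence interval −0.040 to 0.38, adjusted p = 0.595 from limma). Gpx4, which reduces lipid hydroperoxides in membranes, had differences of −0.18, 0.15 and 0.35 and a log2 fold change of 0.10, with 0.076 from its second probe set. Gpx3 (0.048), the secreted form, and Gpx7 (0.11) and Gpx8 (0.10), the forms of the endoplasmic reticulum, did not pass.

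Of 13 soluble glutathione transferases, none passed, 10 having values above 0 and 3 below. Those below were Gsta3 and Gsta4 of the alpha class and Gstm1 of the mu class. The mu-class genes Gstm2, Gstm4, Gstm5 and Gstm7 lay above 0. Gsta4, which conjugates aldehydes from lipid peroxidation, had values of 10.86, 10.94 and 11.52 in MEKi cultures and 11.05, 11.22 and 11.67 in diluent cultures. It was lower in each experiment, by 0.19, 0.28 and 0.15, with a log2 fold change of −0.21 (standard error 0.0741, 95% confidence interval −0.38 to −0.034, adjusted p = 0.419 from limma). Gstm1 was also lower in each experiment (−0.12, adjusted p = 0.657 from limma). Gsta3 had values of 7.17, 6.41 and 6.71 with MEKi and 7.57, 6.51 and 6.64 with diluent, a log2 fold change of −0.15 (limma adjusted p = 0.687) that was −0.019 without experiment 1.

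Of the transferases above 0, Gstt2, of the theta class, had values of 6.32, 6.29 and 6.09 with MEKi and 6.20, 6.01 and 6.02 with diluent. It was higher in each experiment, with a log2 fold change of 0.16 (95% confidence interval −0.032 to 0.34, adjusted p = 0.584 from limma). Its mean of 6.15 lay below the median of all probe sets, 6.32, as did those of Gstm4 (5.98) and Gstk1 (4.14). Gstt3 (0.13), Gstm5 (0.11), Gstt1 (0.077), Gstp1 (0.055), Gstm7 (0.053), Gstm2 (0.050), Gstm4 (0.040), Gstk1 (0.023) and Gsto1 (0.020) followed, with Gstk1 and Gsto1 turning negative under both rescalings. Mu-class genes are close in sequence, and Gstp1 has a near copy, Gstp2, so their signals may be shared. A pair of probe sets naming both Gstp1 and Gstp2 gave 0.017 and 0.013. Gsta1 was named only together with Gsta2 and 2 predicted genes, on 4 probe sets with log2 fold changes of −0.38 to −0.16 and adjusted p-values of 0.502 to 0.683 from limma. All 4 differed most in experiment 3, by −0.97 to −0.45, against −0.013 to 0.090 in experiment 1 and −0.25 to −0.12 in experiment 2. Their means of 5.38 to 5.98 lay below the median of all probe sets. Prdx6 was not named by any probe set in the table used here and was not analysed.

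The microsomal transferases sit in membranes of the endoplasmic reticulum and mitochondria. Mgst1 had values of 11.97, 12.11 and 11.99 in MEKi cultures and 11.64, 11.95 and 11.68 in diluent cultures. It was the 1 member of 39 whose MEKi values all lay above all its diluent values, as 5.69% of all probe sets did, and for 0 members they all lay below (2.17% of all probe sets). Its log2 fold change was 0.27 (standard error 0.0768, 95% confidence interval 0.087 to 0.45), which did not pass (adjusted p = 0.336 from limma). Mgst3 had values of 9.64, 10.17 and 10.75 with MEKi and 9.55, 10.25 and 9.91 with diluent. Its difference came from experiment 3, at 0.84 against 0.084 and −0.089, so that the log2 fold change of 0.28 (95% confidence interval −0.11 to 0.67, adjusted p = 0.648 from limma) was −0.0025 without that experiment. The adipocyte markers Plin1 and Cidec also differed most in experiment 3, by 0.93 and 1.05. The markers Adipoq and Lep instead differed most in experiment 1, by 0.75 and −0.35, and Plin1 differed there by 0.77. The part of adipocyte content in Mgst3 was not tested. Mgst2, which also takes part in leukotriene synthesis, had a value of −0.075.

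Catalase and the superoxide dismutases, which remove hydrogen peroxide and superoxide, were each higher in all 3 experiments as deposited, though none passed, and after centring of the arrays only Sod3 of these was higher in every experiment. Sod3, the extracellular dismutase, had values of 9.07, 8.93 and 8.77 in MEKi cultures and 8.84, 8.75 and 8.31 in diluent cultures. Its differences were 0.24, 0.18 and 0.46, with a log2 fold change of 0.29 (standard error 0.0847, 95% confidence interval 0.095 to 0.49, adjusted p = 0.339 from limma). Cat had 11.54, 11.69 and 11.87 with MEKi and 11.37, 11.64 and 11.60 with diluent, a log2 fold change of 0.16 (95% confidence interval −0.025 to 0.35, adjusted p = 0.569 from limma). Sod1, the cytosolic dismutase, had a value of 0.087.

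As a group, the antioxidant genes moved about as far as the rest of the array. Their median log2 fold change was 0.051, against 0.037 over all probe sets, and 30 of 39 had values above 0 (76.9%, against 64.0% of all probe sets). When arrays were quantile normalized again, 23 of 39 lay above 0 (59.0%, against 50.3%), and after centring 24 did (61.5%, against 51.8%). In the experiments singly, their medians were 0.036, 0.043 and 0.068, while those of all probe sets were −0.0031, 0.10 and 0.014. Of the 39, 11 were higher in all 3 experiments (28.2%, against 23.8% of all probe sets) and 4 were lower in all 3 (10.3%, against 7.98%). Rescaling changed these shares for members and for the whole array. With quantile normalization 7 members were higher in all 3 experiments (17.9%, against 16.3% of all probe sets) and 4 lower (10.3%, against 15.7%). With centring 4 were higher (10.3%, against 17.3%) and 5 lower (12.8%, against 14.9%). Gstt2, Mgst1, Sod3 and Vnn3 were the members higher in all 3 experiments under each scaling, and Hmox1, Gsta4 and Gstm1 were those lower.
At an unadjusted p under 0.05 from limma, 3 members were higher (Vnn3, Mgst1 and Sod3, 7.69% of 39, against 7.58% of all probe sets) and 2 lower (Hmox1 and Gsta4, 5.13%, against 2.31%). The 95% confidence interval lay within 1.5-fold on either side of no change for 37 of 39 members, as it did for 96.8% of all probe sets. The exceptions were Vnn3 and Mgst3.

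The spread of the diluent cultures was set beside the size of the change, as a description. A range over 3 single arrays includes array noise, while the change is a mean of 3 differences, so the range is usually larger. In 37 of 39 members the diluent cultures of the 3 experiments ranged over more than the size of the change with MEKi, against 87.2% of all probe sets, the exceptions being Gstm5 and Gpx7. The median range among diluent cultures was 0.29 for the members and 0.22 for all probe sets, while the median size of the change was 0.087 and 0.075. The widest ranges in diluent were those of Hmox1 (1.39), Gsta3 (1.06), Vnn3 (0.94), Mgst3 (0.70) and Gsta4 (0.62). In Hmox1 and Gsta4 it was experiment 3 that was highest, in Gsta3 experiment 1 and in Vnn3 experiment 2, so that no single experiment was high for all of these.

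**Figure D4:**
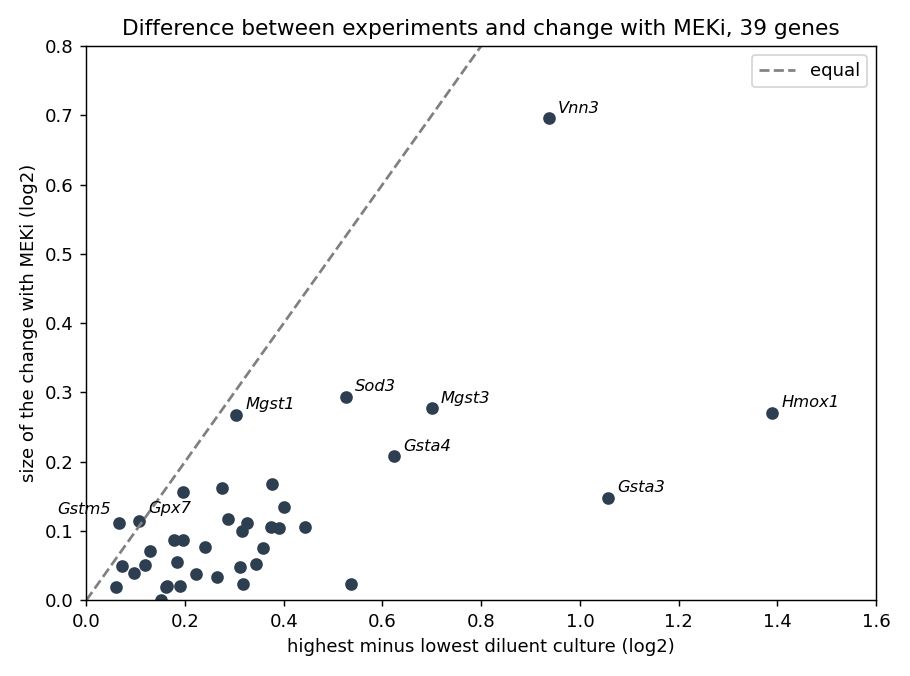
Size of the log2 fold change with MEKi (y axis) against the range of the 3 diluent cultures (x axis, log2) for the 39 measured genes; the dashed line marks equal sizes. All but Gstm5 and Gpx7 lie below the line, and Vnn3 combines a large change (0.70) with a wide range (0.94).

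Other genes of the same pathways, chosen by role, gave no further call: of 78 measured among 85 listed, none was higher and none lower at an adjusted p under 0.05 from limma, and the median was 0.040. At an unadjusted p under 0.05, 7 were higher (8.97%, against 7.58% of all probe sets) and 5 lower (6.41%, against 2.31%). In all 3 experiments 18 were higher (23.1%, against 23.8%) and 9 lower (11.5%, against 7.98%). At least 1.5-fold with an unadjusted p of at most 0.05 was met by 1 of the 78, Maff. The largest value was that of Maff, a small MAF partner of NRF2, with 6.21, 6.65 and 7.18 in MEKi cultures and 7.17, 6.54 and 8.15 in diluent cultures. It was lower in experiments 1 and 3 and not in experiment 2, with a log2 fold change of −0.61 (95% confidence interval −1.09 to −0.13, adjusted p = 0.395 from limma). Slc7a11, the cystine importer that supplies glutathione synthesis, had 4.77, 5.11 and 5.14 with MEKi and 4.89, 5.26 and 6.32 with diluent. Its mean of 5.25 lay below the median of all probe sets, 6.32. The diluent culture of experiment 3 stood alone, and the log2 fold change of −0.48 (95% confidence interval −0.95 to −0.013) did not pass (adjusted p = 0.492 from limma). Pank3, a pantothenate kinase that uses the product of vanins (0.33, adjusted p = 0.468 from limma), and Taldo1, transaldolase of the pentose phosphate pathway (0.27, adjusted p = 0.584 from limma), did not pass. Both differed most in experiment 3. In experiments 1, 2 and 3 the differences were 0.32, −0.017 and 0.70 for Pank3 and 0.095, 0.0014 and 0.72 for Taldo1.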

How the data were processed

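RNA of 6 cultures was hybridized to Affymetrix Mouse Gene ST arrays. The authors normalized intensities with RMA (background correction, quantile normalization, summary per probe set) and used Partek for statistics, versions not given in the sources used here, and the deposited values are log2 intensities. They were used unfiltered, and no column of array values was omitted. The study's build and annotation are not given in the sources used here, so names came from a probe table: 21789 probe sets name 1 gene, 1621 several and 5443 none. Where several probe sets named a gene, the brightest on average stood for it. MEKi was compared with diluent using limma 3.58.1 in R 4.3.3, experiment as a block, Benjamini-Hochberg over all 28853 probe sets, threshold 0.05, with 2 residual and 5.17 prior degrees of freedom. Experiment numbers pair the arrays, as each independent experiment gave both cultures. Deviations from the group mean correlated by 0.812, 0.586 and 0.621 for same-numbered arrays and by −0.605 to 0.207 for other pairs. The deviations of a group sum to 0, so positive values for same-numbered arrays push the other pairs down. Members, lists and the naming rule (called members, the 10 largest changes, regulators and standard NRF2 targets in full; others by role) were chosen with earlier results of these data known. The fit was tested on simulated data. Alternatives varied block, scaling, probe filter, prior, weights, experiments, probe sets per gene and call rule. Precision is limited by the number of arrays. Figures used matplotlib 3.10.9 in Python 3.11.15.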

Additional observations from a re-analysis of the deposited data

How the results depend on the processing

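The count of 1 called member (Vnn3) became 0 under these changes: no replicate block, experiment as a random effect, arrays quantile normalized again, arrays centred, testing the brighter probe sets alone (which leaves Vnn3 out) and with each experiment left out (0 in all 3 fits). It was also 0 with the methods' analysis of variance, run here without a block, at 0.05 and 1.5-fold or after Benjamini-Hochberg adjustment. It stayed at 1 when only probe sets naming 1 gene were tested, when the prior was robust and followed intensity, when arrays were weighted and when probe sets were averaged per gene, and under the other call rules in limma. Over all probe sets, 46 calls became 0 without the block, with a random block, after centring or without experiment 2, 15 after quantile normalization, 25 among brighter probe sets, 14 without experiment 1 and 115 with the robust prior that followed intensity. Of the other pathway genes, 0 had an adjusted p under 0.05 in any of these limma fits. The member median of 0.051 was 0.022 after quantile normalization, 0.019 after centring and 0.028 to 0.075 with 1 experiment left out. The 11 members higher in all experiments became 7 and 4 under these scalings, alternatives chosen after seeing the data, and the 4 lower ones 4 and 5, while the shares of all probe sets were 16.3% and 17.3% higher and 15.7% and 14.9% lower. For 17 members, log2 fold changes were also compared over the alternative limma fits. Those that changed the block, prior, probe filter or probe sets per gene left these values as they were, so direction was fixed there. The count of values that kept direction is therefore no measure of robustness. Of 202 values under alternatives, 185 kept direction and side of the threshold, 7, all of Vnn3, lost the call and 10 changed sign, all of uncalled genes. After quantile normalization these were Keap1 (−0.017), Nqo1 (−0.050) and Txnrd1 (−0.026), and after centring Nqo1 (−0.031) and Txnrd1 (−0.012). With 1 experiment left out, Keap1 ranged over −0.053 to 0.15, Nqo1 over −0.13 to 0.10, Gclc over −0.056 to 0.0029, Txnrd1 over −0.032 to 0.063 and Mgst3 over −0.0025 to 0.46. The causes were not tested.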
